A study of Mus musculus with 3 samples.

Results

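The 37 genes described here encode enzymes of glycolysis, the transporters that bring glucose in and take lactate out, the hypoxia-inducible factor (HIF) alpha subunits with their oxygen sensors, and a set of HIF target genes. They were picked by gene symbol from the 32285 features of the deposited matrices, by a rule that uses no measured value but was proposed with earlier results of these data known. They filled 38 rows, because the symbol Aldoa stands for 2 identifiers (ENSMUSG00000030695, described below, and ENSMUSG00000114515, which was nearly empty). The cells were bone-lining cells (BLCs) of WT mice, taken from flushed femora, tibias and iliac bones. They were released with collagenase, sorted as Alcam+Sca-1- after exclusion of CD45, Ter119 and CD31, and profiled by droplet single-cell RNA-seq. The series holds 1 group of 3 libraries, called replicates 1, 2 and 3, and values below are given in that order. The study gives mouse ages only as a range over all experiments, and its methods call the libraries independent samples. The sources used here do not say how many animals a library came from. The p-values measure how far differences between cell populations varied over these libraries, and how much of that is technical cannot be told.

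Glycolysis converts glucose to pyruvate and yields ATP without oxygen. When oxygen is short, prolyl hydroxylases of the Egln family no longer mark HIF alpha subunits for destruction, and the stabilised subunits raise transcription of glucose transporters, glycolytic enzymes, lactate exporters and angiogenic factors through a short DNA element. Cartilage has no blood vessels, and growth plate chondrocytes are a textbook case of cells that depend on Hif1a and on glycolysis. HIF alpha proteins are controlled mainly after translation, which RNA counts do not measure.

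The core of the HIF-binding element reads ACGTG or GCGTG. Windows of 250 bases before the transcription start were available from RefSeq (build GRCm38.p6) for 34 of the 37 genes, 49 windows in all. Either core, on either strand, was found in 39 of the 49 windows (79.6%), against 12679 of 32851 windows of all genes (38.6%). ACGTG alone was found in 22 of the 49 windows (44.9%), against 16.6% of all windows. Windows of the same gene can overlap, as in Aldoa and Eno1, so some matches were counted more than once. The set holds HIF target genes by choice, and the windows of all genes were not matched to it in base composition. The shares therefore describe the windows and carry no test of HIF binding. By gene, 31 of the 34 held either core and 19 held ACGTG in at least some window. The windows printed here include 5 genes that were higher in summed cartilage cells than in the other gated populations (Slc2a1, Ldha, Pgk1, Slc16a3 and Bnip3). For Slc16a3 and Bnip3 this did not hold against every population in the remaining cartilage cells described below. The other windows belong to 2 genes that were lower in cartilage cells (Adm and Ddit4), so that both kinds can be compared. Capitals mark the matches on either strand.
Slc2a1, chr4:119108495-119108744, plus strand: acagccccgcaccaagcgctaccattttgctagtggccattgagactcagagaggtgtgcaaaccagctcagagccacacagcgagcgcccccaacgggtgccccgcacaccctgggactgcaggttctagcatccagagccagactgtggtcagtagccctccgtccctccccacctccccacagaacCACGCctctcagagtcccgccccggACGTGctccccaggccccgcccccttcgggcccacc
Ldha, chr7:46845554-46845803, plus strand: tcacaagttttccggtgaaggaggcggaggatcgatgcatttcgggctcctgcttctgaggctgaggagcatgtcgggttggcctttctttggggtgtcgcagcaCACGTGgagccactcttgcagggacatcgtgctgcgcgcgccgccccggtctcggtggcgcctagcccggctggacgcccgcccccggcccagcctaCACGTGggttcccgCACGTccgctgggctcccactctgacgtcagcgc
Pgk1, chrX:106186850-106187099, plus strand: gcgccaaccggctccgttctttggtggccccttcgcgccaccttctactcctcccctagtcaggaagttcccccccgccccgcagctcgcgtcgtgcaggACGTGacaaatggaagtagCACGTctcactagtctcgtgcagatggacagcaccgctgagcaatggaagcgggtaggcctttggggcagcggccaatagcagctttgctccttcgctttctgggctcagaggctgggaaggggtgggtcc
Slc16a3, chr11:120948817-120949066, plus strand: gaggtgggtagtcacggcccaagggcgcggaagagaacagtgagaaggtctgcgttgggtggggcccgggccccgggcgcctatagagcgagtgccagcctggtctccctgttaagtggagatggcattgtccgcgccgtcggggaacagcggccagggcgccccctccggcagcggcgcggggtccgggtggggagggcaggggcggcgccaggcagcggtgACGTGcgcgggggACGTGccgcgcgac
Bnip3, chr7:138909507-138909756, minus strand: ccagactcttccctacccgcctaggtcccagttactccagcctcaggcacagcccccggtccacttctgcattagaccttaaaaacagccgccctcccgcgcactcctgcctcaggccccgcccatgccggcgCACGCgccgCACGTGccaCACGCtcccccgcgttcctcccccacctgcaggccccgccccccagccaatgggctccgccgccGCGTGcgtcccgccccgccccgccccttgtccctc
Adm, chr7:110627407-110627656, plus strand: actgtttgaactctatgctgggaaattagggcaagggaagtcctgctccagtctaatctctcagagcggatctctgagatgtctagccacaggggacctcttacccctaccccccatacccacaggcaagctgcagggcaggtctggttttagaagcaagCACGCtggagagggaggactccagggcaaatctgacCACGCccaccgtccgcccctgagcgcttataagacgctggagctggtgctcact
Ddit4, chr10:59951771-59952020, minus strand: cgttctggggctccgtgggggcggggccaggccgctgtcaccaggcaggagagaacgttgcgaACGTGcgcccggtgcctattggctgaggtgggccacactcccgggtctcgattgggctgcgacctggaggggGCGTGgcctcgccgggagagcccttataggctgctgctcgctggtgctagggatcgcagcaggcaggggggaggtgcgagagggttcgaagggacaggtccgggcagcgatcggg
Ldha has another window in the tables, at chr7:46846832-46847081, which held a single match, CACGC at -59, and is not printed. Counted back from the start site, the matches in the printed windows began at -145, -144, -48, -47 and -34 in Ldha, where overlapping matches on opposite strands form the palindrome CACGTG. They began at -150 and -131 in Pgk1, at -27 and -14 in Slc16a3, at -61 and -36 in Slc2a1, and at 5 positions from -117 to -35 in Bnip3. Adm held matches at -90 and -54 and Ddit4 at -187 and -115, so genes of both kinds held the core. A match is a run of letters, not a measured binding site.

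Cells were assigned to populations by marker genes, none of which is among the 37. A cartilage cell had to carry at least 8 of 12 cartilage markers (such as Acan, Col2a1 and Sox9). A stromal cell carried at least 4 of 9 markers of Cxcl12-rich marrow stroma (such as Cxcl12, Lepr and Adipoq), a tendon-like cell at least 3 of 8 (such as Scx, Tnmd and Mfap4) and a bone-forming cell at least 2 of 7 (such as Bglap, Ifitm5 and Dmp1). Each gate also had a minimum summed marker level, and cells passing several gates were left out. The libraries held 70, 4702 and 6681 cartilage cells, 565, 78 and 99 stromal cells, 80, 68 and 68 tendon-like cells and 36, 302 and 463 bone-forming cells, while 1396, 959 and 1765 cells passed no gate. UMIs (unique molecular identifiers, each standing for 1 captured transcript) were summed per library and population, and levels are in CPM, the UMI count of a gene divided by all UMIs of that sum and scaled to the same total in every sum. The sums ran from 181453 UMIs in bone-forming cells of replicate 1 to 59776045 UMIs in cartilage cells of replicate 2.

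The libraries differed in make-up, and cartilage transcripts were also counted in other cells. The 4 superficial zone markers (Prg4, Cilp, Cilp2 and Clu) summed to 51886, 17707 and 25342 CPM in cartilage cells. The 12 cartilage markers summed to 21099, 63946 and 54565 CPM in cartilage cells, 3373, 9629 and 11169 CPM in bone-forming cells, 176 to 3225 CPM in stromal and tendon-like cells, and 41.4, 925 and 1096 CPM in cells gated as haematopoietic. In bone-forming cells all 12 were detected in replicates 2 and 3, and 5 were at 0 in replicate 1. The part of this signal in the results below was not tested. The pairs of libraries shared 5, 9 and 28 cell barcodes.

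Of the 37 genes, 30 passed the filter on low counts in the comparison of the 4 populations, and Pfkm, Aldoc, Eno2, Pdk1, Pdk2, Egln3 and Ankrd37 did not. In cartilage against stromal cells, 15 of the 30 genes were higher and 6 lower at an adjusted p under 0.05 (edgeR's quasi-likelihood test on the sums with library as a block, Benjamini-Hochberg over all tested genes), where 26.0% of all 8609 tested genes were higher and 24.4% lower. In cartilage against tendon-like cells, 18 were higher and 2 lower, against 19.3% and 18.2% of all genes. In cartilage against bone-forming cells, 18 were higher and 5 lower, against 26.8% and 22.5%. The median log2 fold change of the 30 genes was 0.62, 0.95 and 0.86 in these comparisons, beside 0.04, 0.02 and 0.10 over all genes. A gene that passed the filter only through the population where it is high had to differ, so these counts describe the genes and carry no test of the set. The comparisons share the cartilage sums.

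Fitted fold changes are relative to the typical gene, because the scaling between sums (TMM) places it near 0, and they can differ from the ratio of the CPM values. With library totals alone, the median of all genes moved to -0.36 against stromal, -0.34 against tendon-like and 0.17 against bone-forming cells. The calls over all genes then split into 1373 higher and 3131 lower, 981 and 2563, and 2462 and 1756. The genes described here split into 14 higher and 6 lower, 15 and 6, and 19 and 5.

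**Figure D1:**
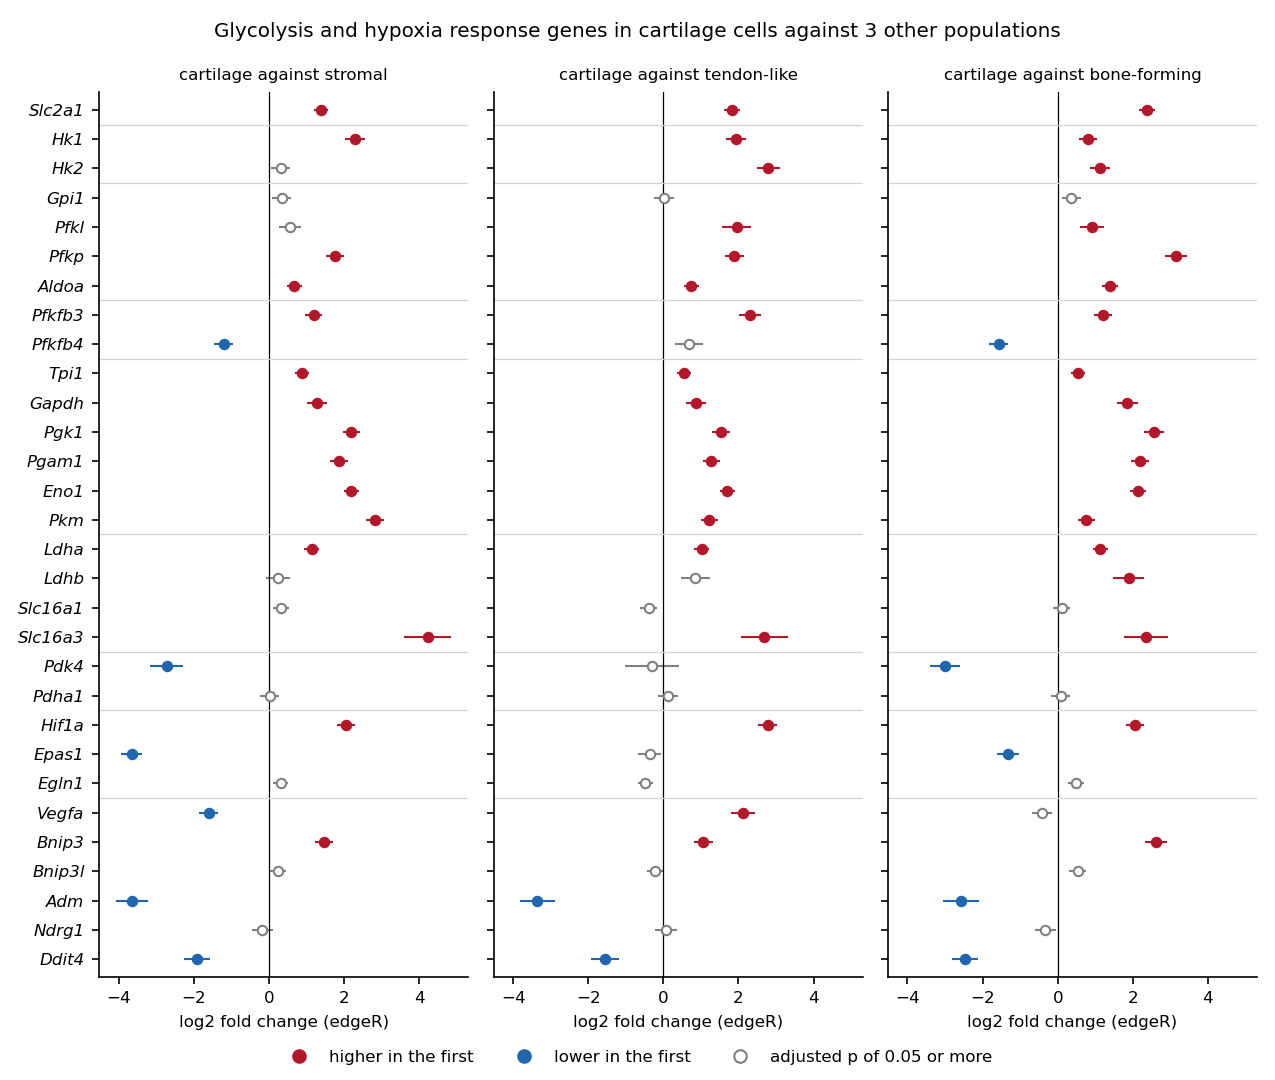
Fitted log2 fold change of the 30 tested genes in cartilage cells against stromal, tendon-like and bone-forming cells, with bars of 1 standard error and 3 libraries in every population. Filled red points were higher and filled blue points lower in cartilage cells at an adjusted p under 0.05, and open points did not pass. The lower glycolytic enzymes Tpi1, Gapdh, Pgk1, Pgam1, Eno1 and Pkm are red in all panels.

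Glucose transport opens the pathway. Slc2a1, the main basal glucose transporter, had 119, 110.0 and 120.2 CPM in cartilage cells, 55.1, 62.0 and 62.9 CPM in stromal, 43.7, 37.1 and 47.4 CPM in tendon-like and 33.1, 15.5 and 24.3 CPM in bone-forming cells. Every cartilage value lay above every value of the other populations. The log2 fold change in cartilage was 1.39 ± 0.19 (SE, adjusted p = 1.93e-05) against stromal, 1.82 ± 0.21 (padj = 8.22e-06) against tendon-like and 2.38 ± 0.22 (padj = 7.76e-07) against bone-forming cells. Later values are given in the same way, as the log2 fold change with its SE and the adjusted p (padj).

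Hexokinases trap glucose in the cell by phosphorylation. Hk1, the form found in most tissues, had 107, 102 and 101 CPM in cartilage, 44.8, 18.003 and 13.7 CPM in stromal, 45.7, 31.5 and 31.6 CPM in tendon-like and 77.2, 40.0 and 63.4 CPM in bone-forming cells. Cartilage stood above the rest without overlap, by 2.29 ± 0.26 (padj = 3.96e-06) against stromal, 1.93 ± 0.28 (padj = 6.36e-05) against tendon-like and 0.81 ± 0.24 (padj = 0.0115) against bone-forming cells. Hk2, the inducible form of muscle and fat, followed another order, with 189, 210.3 and 207 CPM in cartilage, 151, 274 and 241 CPM in stromal, 53.7, 29.7 and 25.3 CPM in tendon-like and 99.2, 71.1 and 108 CPM in bone-forming cells. Its cartilage and stromal values overlapped (0.31 ± 0.25, padj = 0.32), and tendon-like cells stood lowest. Hk2 was higher in cartilage than in tendon-like cells (2.79 ± 0.31, padj = 5.51e-06) and bone-forming cells (1.12 ± 0.27, padj = 0.00296). These are values of the whole cartilage gate. Superficial and Ibsp-high cells, described below, overlapped bone-forming cells in Hk2, and the remaining cells stood above every bone-forming value.

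In the upper part of the pathway, Pfkp, the platelet form of phosphofructokinase, which commits sugar to glycolysis, had 93.0, 96.7 and 89.5 CPM in cartilage, 36.8, 28.0 and 49.2 CPM in stromal, 33.8, 38.9 and 22.1 CPM in tendon-like and 16.5, 11.4 and 6.34 CPM in bone-forming cells. Cartilage stood above and bone-forming cells below all other values. The log2 fold change in cartilage was 1.75 ± 0.23 (padj = 1.86e-05) against stromal, 1.89 ± 0.26 (padj = 4.30e-05) against tendon-like and 3.15 ± 0.30 (padj = 9.23e-07) against bone-forming cells. Pfkl, the liver form, ranged from 29.0 to 44.3 CPM in cartilage, 24.0 to 38.3 CPM in stromal, 7.95 to 16.7 CPM in tendon-like and 10.6 to 44.1 CPM in bone-forming cells. It was higher in cartilage than in tendon-like (1.95 ± 0.39, padj = 0.00111) and bone-forming cells (0.91 ± 0.32, padj = 0.0291), and did not pass against stromal cells (padj = 0.124). Pfkm, the muscle form, was under the filter, at 6.99 to 10.0 CPM in cartilage and 0 to 15.8 CPM elsewhere.

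Aldoa, the aldolase of muscle and most other tissues, was called higher in cartilage in all 3 comparisons, but its levels of 286, 239 and 255 CPM overlapped those of stromal cells (183, 186 and 295 CPM). With library totals alone, its calls against stromal (adjusted p = 0.288) and tendon-like cells (padj = 0.166) were lost. Aldoc, the brain form, was under the filter at up to 2.12 CPM. Gpi1, which turns glucose phosphate into fructose phosphate, had 62.6 to 74.4 CPM in cartilage and 22.0 to 97.4 CPM elsewhere and passed in none of the 3 comparisons (padj = 0.28, 0.954 and 0.271).

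Pfkfb3 and Pfkfb4 make and break the sugar bisphosphate that activates phosphofructokinase, and they were ordered differently. Pfkfb3 had 58.6, 106 and 103 CPM in cartilage, 38.3, 68.0 and 52.0 CPM in stromal, 29.8, 18.5 and 19.0 CPM in tendon-like and 27.6, 44.9 and 35.9 CPM in bone-forming cells. It was higher in cartilage in all 3 comparisons (1.19 ± 0.23, padj = 5.22e-04 against stromal, 2.31 ± 0.28, padj = 1.60e-05 against tendon-like, 1.21 ± 0.24, padj = 7.99e-04 against bone-forming cells). The cartilage and stromal ranges overlapped, although cartilage was higher within each library. No value of the superficial or Ibsp-high cells described below exceeded the stromal range, and every value of the remaining cartilage cells did. Pfkfb4 had 14.3, 11.5 and 12.9 CPM in cartilage, 41.8, 42.0 and 32.8 CPM in stromal, 9.94, 13.0 and 6.32 CPM in tendon-like and 55.1, 27.0 and 38.1 CPM in bone-forming cells. It was lower in cartilage than in stromal (-1.20 ± 0.25, padj = 0.00111) and bone-forming cells (-1.57 ± 0.25, padj = 1.09e-04), without overlap. Superficial cells alone overlapped the bone-forming range in Pfkfb4, although they were lower within each library, and lay below every stromal value.

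All 6 tested enzymes of the lower, energy-yielding part of glycolysis were called higher in cartilage in each comparison. Pkm, the pyruvate kinase of the last step, had 475, 352 and 363 CPM in cartilage, 63.6, 66.0 and 104 CPM in stromal, 195, 191 and 285 CPM in tendon-like and 265, 192 and 247 CPM in bone-forming cells. Cartilage stood above and stromal cells below all other values, and the log2 fold change in cartilage was 2.82 ± 0.24 (padj = 1.91e-07) against stromal, 1.23 ± 0.22 (padj = 5.41e-04) against tendon-like and 0.76 ± 0.22 (padj = 0.0101) against bone-forming cells. Pgk1, the first ATP-forming step, had 159, 140.3 and 131 CPM in cartilage, 40.9, 50.0 and 32.8 CPM in stromal, 51.7, 57.5 and 85.4 CPM in tendon-like and 38.6, 17.97 and 23.3 CPM in bone-forming cells. Again every cartilage value was above the rest (2.20 ± 0.23, padj = 1.64e-06, 1.54 ± 0.23, padj = 1.07e-04 and 2.57 ± 0.26, padj = 1.75e-06 against stromal, tendon-like and bone-forming cells).

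Eno1, the enolase of most tissues, had 159, 177 and 136 CPM in cartilage and 39.2, 70.0 and 35.6 CPM in stromal cells (2.20 ± 0.20, padj = 4.72e-07). Eno1 has a nearly identical retrogene, so its reads may have been split and its level is uncertain. Gapdh, which reduces NAD and has many processed pseudogenes with the same limit, had 649, 412 and 428 CPM in cartilage and 231, 113 and 94.1 CPM in bone-forming cells (1.86 ± 0.28, padj = 7.18e-05). Pgam1, the phosphoglycerate mutase, differed by 1.86 ± 0.23 (padj = 7.65e-06) against stromal cells, and Tpi1, the triose isomerase, by 0.89 ± 0.19 (padj = 0.00104). With library totals alone, the calls of Gapdh (padj = 0.187) and Tpi1 (padj = 0.488) against tendon-like cells were lost. Eno2, the neuronal enolase, was under the filter, at 1.43 to 2.61 CPM in cartilage and 0 to 11.0 CPM elsewhere.

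Among the lactate genes, Slc16a3, the exporter used by highly glycolytic cells, had 52.9, 19.1 and 21.0 CPM in cartilage, 2.95, 4.001 and 0 CPM in stromal, 5.96, 5.56 and 6.32 CPM in tendon-like and 5.51, 0 and 9.52 CPM in bone-forming cells. The cartilage values were highest without overlap. The log2 fold change was 4.24 ± 0.63 (padj = 4.83e-05) against stromal, 2.69 ± 0.63 (padj = 0.00375) against tendon-like and 2.36 ± 0.58 (padj = 0.00374) against bone-forming cells. Without superficial and Ibsp-high cells, the remaining cartilage cells described below overlapped bone-forming cells in Slc16a3. Counts outside cartilage were small (10, 2 and 0 UMIs in stromal cells), so the size of the difference is poorly known, and without replicate 2 the adjusted p against bone-forming cells was 0.0605. Slc16a1, a transporter that can carry lactate either way, had 22.9 to 32.2 CPM in cartilage and 23.7 to 55.7 CPM elsewhere and passed in none of the 3 comparisons, but with library totals alone was lower in cartilage than in tendon-like cells (-0.75, padj = 0.0203).

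Ldha, the lactate dehydrogenase subunit that favours lactate formation, had 490.5, 367 and 374 CPM in cartilage, 212, 260.0 and 268 CPM in stromal, 282, 234 and 266 CPM in tendon-like and 226, 157 and 176 CPM in bone-forming cells. Every cartilage value lay above every other value. The log2 fold changes were 1.14 ± 0.20 (padj = 2.43e-04), 1.02 ± 0.20 (padj = 0.00109) and 1.14 ± 0.21 (padj = 3.65e-04) against stromal, tendon-like and bone-forming cells. Ldhb, the subunit that favours pyruvate formation, had 28.6, 36.6 and 40.9 CPM in cartilage and 5.51, 4.90 and 15.9 CPM in bone-forming cells (1.89 ± 0.41, padj = 0.00168), and it did not pass against stromal (padj = 0.563) or tendon-like cells (padj = 0.0924).

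Pyruvate dehydrogenase sends pyruvate into the mitochondrial cycle, and the Pdk kinases switch it off. Pdha1, a catalytic subunit, had 46.2 to 54.3 CPM in cartilage and 33.1 to 75.9 CPM elsewhere and passed in no comparison of the 4 populations. Pdk1, the HIF-induced kinase, had 17.2, 16.6 and 14.9 CPM in cartilage, 8.84, 12.0 and 8.21 CPM in stromal, 7.95, 11.1 and 15.8 CPM in tendon-like and 11.0, 8.99 and 13.7 CPM in bone-forming cells, and was not tested because it was under the filter. Pdk4, the kinase linked to fasting and fat oxidation, had 1.43, 3.38 and 5.15 CPM in cartilage, 29.5, 44.0 and 16.4 CPM in stromal, 3.98, 11.1 and 0 CPM in tendon-like and 22.0, 28.6 and 33.8 CPM in bone-forming cells. Cartilage lay below stromal (-2.72 ± 0.44, padj = 1.01e-04) and bone-forming cells (-3.00 ± 0.40, padj = 2.66e-05) and overlapped tendon-like cells. Pdk2 was under the filter, at 2.04 to 2.86 CPM in cartilage and 2.00 to 22.0 CPM elsewhere.

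Transcripts of the HIF alpha subunits were distributed differently over the populations. Hif1a had 496, 342 and 341 CPM in cartilage, 129, 142 and 107 CPM in stromal, 109, 44.5 and 72.7 CPM in tendon-like and 99.2, 80.9 and 85.6 CPM in bone-forming cells. The lowest cartilage value was above the highest value elsewhere, and the log2 fold change was 2.04 ± 0.24 (padj = 4.29e-06) against stromal, 2.78 ± 0.26 (padj = 1.00e-06) against tendon-like and 2.06 ± 0.24 (padj = 7.39e-06) against bone-forming cells. Epas1, which encodes the related subunit known from vessels, had 64.4, 32.4 and 39.1 CPM in cartilage, 949, 612 and 613 CPM in stromal, 99.4, 61.2 and 53.8 CPM in tendon-like and 66.1, 96.4 and 113 CPM in bone-forming cells. Every stromal value was far above the rest (-3.66 ± 0.29, padj = 8.64e-08 for cartilage against stromal cells). Epas1 was also lower in cartilage than in bone-forming cells (-1.33 ± 0.29, padj = 0.00152), a call that was lost without replicate 2 (padj = 0.106) or replicate 3 (padj = 0.0898). Against tendon-like cells it did not pass (padj = 0.374), and with library totals alone it was lower in cartilage (-0.74, padj = 0.0467). These are values of the whole cartilage gate. The superficial cells described below overlapped bone-forming cells in Epas1 and lay above tendon-like cells in every library.

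Of the oxygen sensors, Egln1 had 41.5, 49.3 and 41.7 CPM in cartilage, 54.5, 50.0 and 38.3 CPM in stromal, 81.5, 87.1 and 75.9 CPM in tendon-like and 55.1, 30.2 and 23.3 CPM in bone-forming cells. Tendon-like cells stood highest, above stromal (-0.78 ± 0.22, padj = 0.0137 for stromal against tendon-like) and bone-forming cells (0.95 ± 0.24, padj = 0.00729), and no comparison with cartilage passed. Egln1 was lower in cartilage than in tendon-like cells with library totals alone (-0.84, padj = 0.00698), and the values of these populations did not overlap. Without replicate 2 the padj against stromal cells became 0.193 and that against bone-forming cells 0.199, and without replicate 3 0.158 and 0.175. Egln3, an inducible sensor, was under the filter, at 4.22 to 7.15 CPM in cartilage and 0 to 6.32 CPM elsewhere.

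Of the 6 tested HIF targets outside metabolism, 1 was higher and 3 lower in cartilage than in stromal cells (all genes 26.0% and 24.4%). Against tendon-like cells 2 were higher and 2 lower (all genes 19.3% and 18.2%), and against bone-forming cells 1 was higher and 2 lower (all genes 26.8% and 22.5%). Vegfa, the principal vessel growth factor, had 132, 77.1 and 94.6 CPM in cartilage, 297, 422 and 479 CPM in stromal, 33.8, 24.1 and 28.5 CPM in tendon-like and 110.2, 107 and 158 CPM in bone-forming cells. Stromal cells stood above and tendon-like cells below all other values, and cartilage overlapped bone-forming cells. The log2 fold change in cartilage was -1.60 ± 0.25 (padj = 8.40e-05) against stromal, 2.12 ± 0.32 (padj = 1.17e-04) against tendon-like and -0.42 ± 0.26 (padj = 0.205) against bone-forming cells, and the last passed without replicate 1 (padj = 1.69e-05).

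Bnip3, a mitophagy receptor, had 64.4, 51.1 and 51.0 CPM in cartilage, 27.4, 28.0 and 24.6 CPM in stromal, 27.8, 40.8 and 31.6 CPM in tendon-like and 16.5, 8.17 and 6.34 CPM in bone-forming cells. Cartilage stood above and bone-forming cells below the rest (1.46 ± 0.24, padj = 1.10e-04, 1.07 ± 0.25, padj = 0.00343 and 2.61 ± 0.30, padj = 5.65e-06 against stromal, tendon-like and bone-forming cells). These are values of the whole cartilage gate, where superficial and Ibsp-high cells had more Bnip3 than the remaining cells described below. In the remaining cells, Bnip3 overlapped stromal cells and lay below tendon-like cells in every library. Its relative Bnip3l ranged from 45.5 to 152 CPM and passed in none of the 3 comparisons. Scaled by library totals alone, Bnip3l was lower than in tendon-like (-0.60, padj = 0.0352) and higher than in bone-forming cells (0.60, padj = 0.0381). Ndrg1, a stress-induced gene, ranged from 41.1 to 185 CPM and passed in none of the 3 either, and Ankrd37, a small ankyrin protein, was under the filter at 5.72 to 20.0 CPM.

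Adm, which encodes the vasodilator peptide adrenomedullin, had 15.7, 2.17 and 2.91 CPM in cartilage, 81.0, 66.0 and 35.6 CPM in stromal, 67.6, 37.1 and 41.1 CPM in tendon-like and 11.0, 21.2 and 14.8 CPM in bone-forming cells. It was lower in cartilage than in stromal (-3.65 ± 0.42, padj = 4.37e-06) and tendon-like cells (-3.35 ± 0.46, padj = 4.67e-05) without overlap, and was called lower than in bone-forming cells (-2.58 ± 0.49, padj = 5.75e-04) although replicate 1 went the other way. Ddit4, an mTOR inhibitor induced by hypoxia and other stresses, had 22.9, 15.2 and 18.9 CPM in cartilage, 57.4, 94.0 and 109 CPM in stromal, 23.9, 70.4 and 104 CPM in tendon-like and 138, 67.8 and 95.2 CPM in bone-forming cells. Cartilage lay below all other values (-1.92 ± 0.34, padj = 2.26e-04, -1.55 ± 0.36, padj = 0.00384 and -2.46 ± 0.34, padj = 3.28e-05), and the call against tendon-like cells was lost without replicate 2 (padj = 0.134) or replicate 3 (padj = 0.159). All 10 genes of a list induced by tissue digestion (such as Fos, Jun and Atf3) were detected in every population. They summed to 6322 to 6883 CPM in cartilage, 10381 to 13474 CPM in stromal, 6527 to 12586 CPM in tendon-like and 9263 to 12863 CPM in bone-forming cells, and their part in the Ddit4 and Adm values was not tested.

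In 9 of the sums behind these levels, over 20% of at least 20 UMIs of a gene came from a single cell. In replicate 1 they were 29.3% of the 41 Pfkfb3 UMIs and 21.6% of the 37 Slc16a3 UMIs of cartilage cells, 22.7% of the 22 Slc2a1 UMIs and 22.2% of the 27 Hk2 UMIs of tendon-like cells, and 25.9% of the 27 Tpi1 UMIs and 23.8% of the 42 Gapdh UMIs of bone-forming cells. In replicate 2 they were 23.8% of the 21 Pfkfb4 UMIs of stromal cells and 25.0% of the 24 Hif1a UMIs of tendon-like cells, and in replicate 3 26.7% of the 30 Gpi1 UMIs of tendon-like cells.

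**Figure D2:**
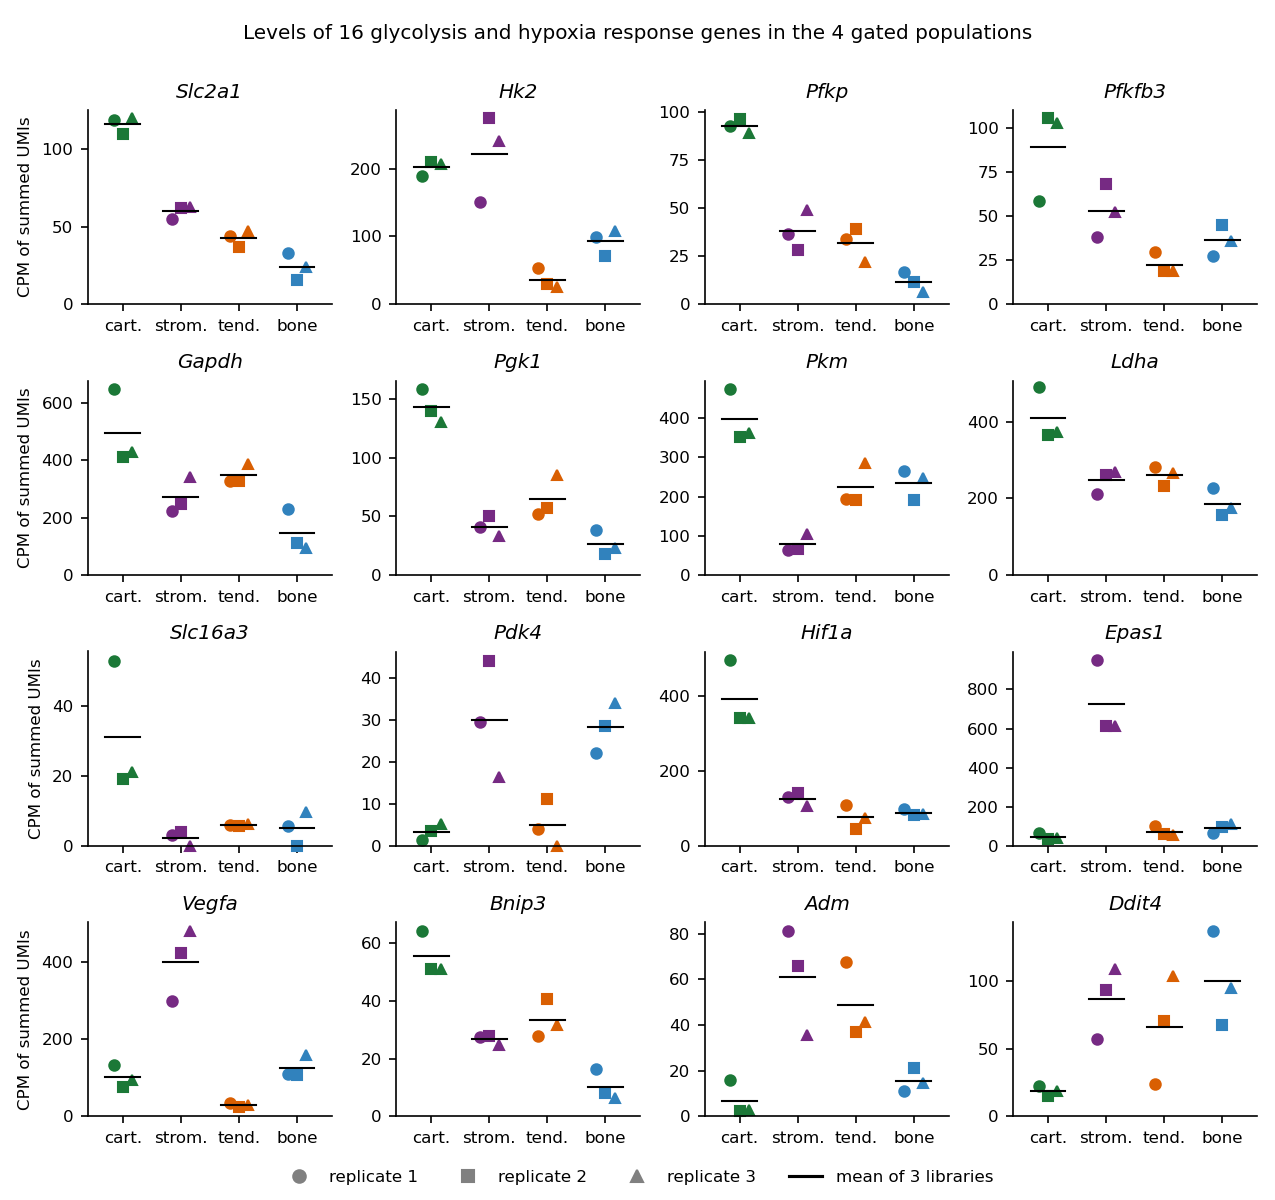
Level in CPM of 16 of the genes in cartilage, stromal, tendon-like and bone-forming cells. Each symbol is the summed UMIs of 1 library and black lines are means of 3 libraries. Hif1a and Ldha stand highest in cartilage cells in every library, and Epas1 and Vegfa stand highest in stromal cells.

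The same fit compared the populations outside cartilage with each other. In stromal against tendon-like cells, 7 of 30 were higher and 3 lower, against 14.3% and 13.8% of all genes. In stromal against bone-forming cells, 8 were higher and 2 lower, against 17.9% and 17.3%. In tendon-like against bone-forming cells, 8 were higher and 7 lower, against 15.6% and 14.7%. With library totals alone, the genes split into 8 higher and 2 lower, 13 and 2, and 14 and 4. All genes then split into 1278 and 1080, 2980 and 834, and 2638 and 711, with medians of 0.03, 0.51 and 0.49.

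Stromal cells were above tendon-like cells in Vegfa (3.73 ± 0.32, padj = 7.87e-07), Epas1 (3.29 ± 0.30, padj = 1.35e-06), Hk2 (2.49 ± 0.31, padj = 2.80e-05), Pdk4 (2.43 ± 0.61, padj = 0.00746) and Pfkfb4 (1.88 ± 0.36, padj = 0.00105), and below them in Pkm (-1.60 ± 0.24, padj = 1.50e-04). Pfkl (1.39 ± 0.43, padj = 0.0245) and Pfkfb3 (1.12 ± 0.32, padj = 0.0147) were also higher in stromal cells, and Hif1a, higher in stromal cells in every library (0.74 ± 0.27), narrowly missed the threshold (padj = 0.0514). It passed with DESeq2 (padj = 0.0485), with no low-count filter (padj = 0.0453), with library totals alone (padj = 0.0354) and without replicate 1 (padj = 8.38e-04). Slc16a1, at 30.6, 30.0 and 32.8 CPM in stromal and 55.7, 42.6 and 50.6 CPM in tendon-like cells, passed narrowly (-0.71 ± 0.24, padj = 0.0405) and was lost without replicate 1, 2 or 3 (padj = 0.255, 0.208 and 0.229), with DESeq2 (padj = 0.0662), library totals alone (padj = 0.0696), no low-count filter (padj = 0.218) or looser gates (padj = 0.109). Without replicate 3, the genes called between stromal and tendon-like cells fell from 10 to 6.

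Stromal cells were above bone-forming cells in Epas1 (2.33 ± 0.28, padj = 1.43e-05), Ldhb (1.65 ± 0.47, padj = 0.0127), Pfkp (1.39 ± 0.36, padj = 0.00684), Vegfa (1.19 ± 0.26, padj = 0.00241) and Bnip3 (1.15 ± 0.36, padj = 0.022), and below them in Pkm (-2.06 ± 0.24, padj = 1.06e-05) and Hk1 (-1.48 ± 0.30, padj = 0.00135). Slc2a1 (0.98 ± 0.25, padj = 0.00649), Hk2 (0.81 ± 0.27, padj = 0.0316) and Aldoa (0.71 ± 0.22, padj = 0.0197) were also higher in stromal cells. Without replicate 2 or replicate 3, the genes called fell from 10 to 5 and 5. Among those named, Bnip3 (padj = 0.204 and 0.204) and Slc2a1 (padj = 0.232 and 0.0656) were lost without either, Ldhb (padj = 0.26) and Vegfa (padj = 0.0676) without replicate 2, and Pfkp (padj = 0.153) without replicate 3.

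Tendon-like cells were below bone-forming cells in Pdk4 (-2.71 ± 0.62, padj = 0.00407), Vegfa (-2.54 ± 0.33, padj = 4.74e-05), Pfkfb4 (-2.25 ± 0.37, padj = 3.15e-04), Hk2 (-1.67 ± 0.33, padj = 0.00156) and Hk1 (-1.12 ± 0.31, padj = 0.0139). They were above them in Bnip3 (1.54 ± 0.37, padj = 0.00514), Pfkp (1.26 ± 0.38, padj = 0.0218), Pgk1 (1.03 ± 0.30, padj = 0.019), Gapdh (0.99 ± 0.28, padj = 0.0151) and Egln1 (0.95 ± 0.24, padj = 0.00729). Aldoa (0.65 ± 0.22, padj = 0.0399), Bnip3l (0.76 ± 0.24, padj = 0.0288) and Pgam1 (0.91 ± 0.27, padj = 0.0205) were also higher in tendon-like cells, and Epas1 (-0.96 ± 0.32, padj = 0.0322) and Pfkfb3 (-1.10 ± 0.33, padj = 0.0217) were called lower with replicate 1 in the other direction. Without replicate 2 or replicate 3, the genes called fell from 15 to 4 and 3. Hk1, Bnip3, Pfkp, Pgk1, Gapdh and Egln1 were lost without either, with adjusted p from 0.0788 to 0.236, and Hk2 (padj = 0.06) without replicate 3. Hif1a did not pass (padj = 0.0622), but was lower in tendon-like cells without replicate 1 (padj = 4.41e-04). Under library totals alone, Bnip3l, Pgam1, Pgk1, Gapdh and Adm became higher in stromal than in bone-forming cells. Between tendon-like and bone-forming cells, the calls of Hk1, Pfkfb3 and Epas1 were then lost, and Gpi1, Eno1, Slc16a1, Slc2a1, Adm and Ldhb became higher in tendon-like cells.

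Several steps are carried out by products of more than 1 gene, and the share of each gene was computed from the UMIs of its family. Capture may differ between genes, so a share is compared between populations and not read as a ratio of proteins. Epas1 made up 10.1% ± 1.42 (SD, n = 3) of the UMIs of Hif1a and Epas1 in cartilage, 84.8% ± 3.45 in stromal, 49.3% ± 7.84 in tendon-like and 50.4% ± 9.12 in bone-forming cells. The cartilage and stromal ranges did not meet those of the other populations. Hk2 made up 66.1% ± 2.00 of the hexokinase UMIs in cartilage, 88.5% ± 9.89 in stromal, 49.0% ± 4.80 in tendon-like and 61.1% ± 4.20 in bone-forming cells. Pfkp made up 68.2% ± 4.42 of the phosphofructokinase UMIs in cartilage and 28.7% ± 5.49 in bone-forming cells, where Pfkl made up 52.5% ± 12.4. Every stromal share of Hk2 was above the other populations, while the cartilage and bone-forming ranges met, and every bone-forming share of Pfkp was below those of cartilage. Pfkfb4 made up 13.5% ± 5.30 of its pair in cartilage, 43.0% ± 7.95 in stromal and 51.9% ± 14.6 in bone-forming cells. Slc16a3 made up 39.0% to 69.8% of its pair in cartilage and 0% to 26.5% elsewhere. Pdk4 made up 66.4% ± 8.37 of the UMIs of Pdk1, Pdk2 and Pdk4 in stromal and 15.1% ± 8.26 in cartilage cells. Aldoc and Ldhb were minor members throughout, at up to 0.990% and 17.7% of their pairs.

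**Figure D3:**
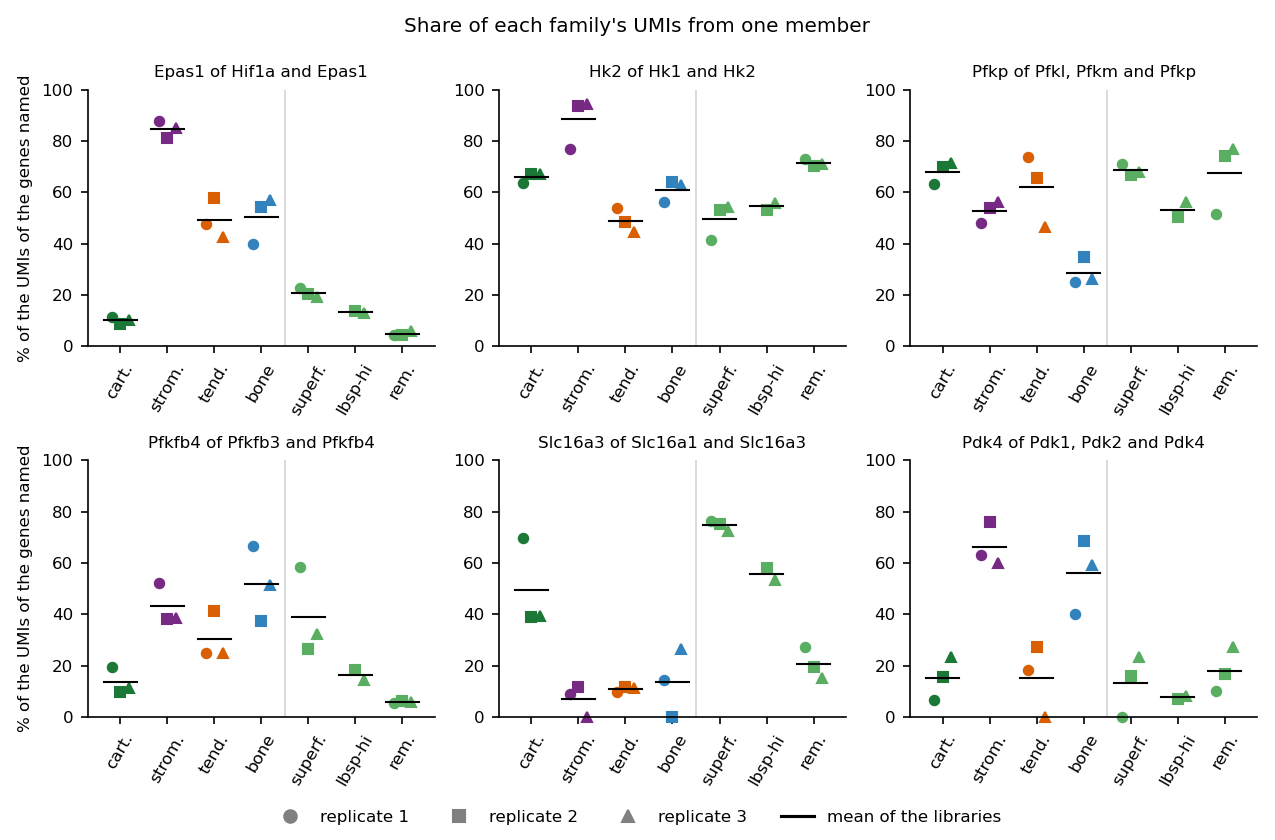
Percent of the UMIs of the named genes that came from the first of them, by library, in the 4 populations (left of the grey line) and in 3 parts of the cartilage cells (right). Black lines are means. Epas1 lies between 81.2% and 88.0% in stromal cells and between 8.64% and 11.5% in cartilage cells.

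Cartilage cells were then divided by zone markers into superficial cells (28, 1040 and 1701), cells high in Ibsp (8, 579 and 918) and remaining cells (25, 2822 and 3661), and cells with both marker sets were left out. The 8 Ibsp-high cells of replicate 1 were too few to sum. Ibsp, a sialoprotein of bone and late cartilage, reached 43878 and 41682 CPM in Ibsp-high cells of replicates 2 and 3. Col10a1, the collagen of hypertrophic cartilage, was at 568 and 813 CPM, well above its 11.0 and 12.2 CPM in remaining cells. Pth1r, a further marker of this zone, was at 374 and 314 CPM. Ihh (11.2 and 6.83 CPM) and Mmp13 (12.1 and 6.52 CPM) were low. As the markers did not all stand high, these cells are named by Ibsp and not as hypertrophic. Superficial cells had a median of 8398, 8778 and 5755 UMIs and remaining cells 7860, 14249 and 7762. The digestion list summed to 4881, 6303 and 6267 CPM in superficial and 8178, 6818 and 5956 CPM in remaining cells.

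All 37 genes were tested between the zones. In superficial against remaining cells, 25 were higher and 3 lower, where 25.6% of 14302 genes were higher and 27.8% lower. In Ibsp-high against remaining cells, 18 were higher and 6 lower, against 20.0% and 21.4%. The median log2 fold change of the 37 genes was 0.69 and 0.52, beside -0.01 and 0.01 over all genes, and both comparisons share the remaining cells. With library totals alone, the genes split into 21 higher and 6 lower, and 14 and 8. All genes then split into 2563 and 5561, and 1712 and 5262, with medians of -0.22 and -0.25.

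**Figure D4:**
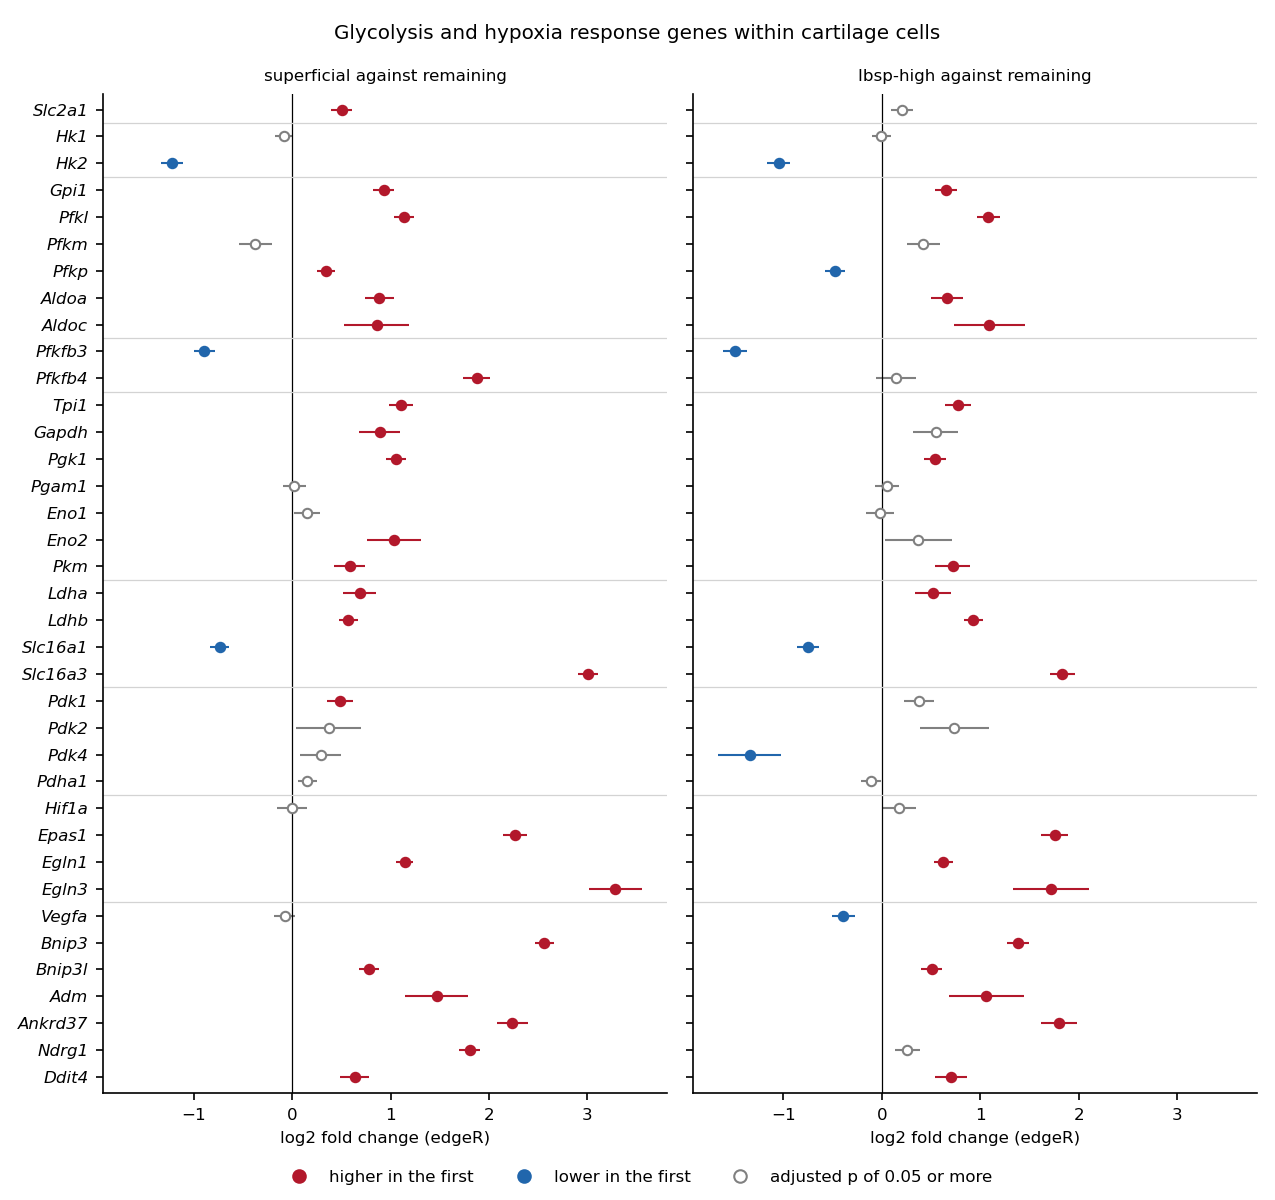
Fitted log2 fold change of the 37 genes in superficial cells (3 libraries) and in Ibsp-high cells (2 libraries) against the remaining cartilage cells, with bars of 1 standard error. Filled red points were higher and filled blue points lower at an adjusted p under 0.05, and open points did not pass. In both panels Slc16a3, Epas1, Egln3, Bnip3 and Ankrd37 are red and Hk2, Pfkfb3 and Slc16a1 are blue.

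In superficial cells, the members of the Slc16a and Pfkfb pairs went in opposite directions. Slc16a3 had 64.9, 55.9 and 54.1 CPM in superficial and 12.1, 8.57 and 7.16 CPM in remaining cells (3.00 ± 0.10, padj = 1.85e-11), while Slc16a1 was lower, with 20.3, 18.3 and 20.5 against 32.3, 35.4 and 39.7 CPM (-0.74 ± 0.10, padj = 2.17e-05). The share of Slc16a3 in this pair was 74.7% ± 1.91 in superficial and 20.7% ± 6.09 in remaining cells (SD, n = 3). Pfkfb4 was higher, with 28.4, 23.5 and 29.4 against 8.09, 8.60 and 8.04 CPM (1.87 ± 0.14, padj = 4.65e-08), and Pfkfb3 lower, with 20.3, 64.9 and 61.7 against 146, 129 and 135 CPM (-0.89 ± 0.11, padj = 5.76e-06). Hk2 was lower, with 77.0, 98.7 and 104 against 319, 259.6 and 271 CPM (-1.22 ± 0.11, padj = 3.80e-07), while Hk1 did not pass (padj = 0.434). The superficial and remaining values of Slc16a3, Slc16a1, Pfkfb4, Pfkfb3 and Hk2 did not overlap. The Slc16a1 call was lost without replicate 2 (padj = 0.499) or replicate 3 (padj = 0.532).

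Several HIF targets and both oxygen sensors were called higher in superficial cells, while Hif1a had 345, 308 and 324 against 509, 353 and 349 CPM and did not pass (-0.00 ± 0.15, padj = 0.994). Epas1 had 101, 78.8 and 76.2 against 24.3, 15.7 and 21.9 CPM (2.27 ± 0.12, padj = 1.15e-09). Every superficial value of Epas1 was above the remaining cells and below every stromal value. Bnip3 had 81.1, 145 and 113 against 24.3, 25.4 and 24.6 CPM (2.56 ± 0.10, padj = 5.72e-11), Ankrd37 had 4.05, 14.7 and 17.8 against 0, 3.90 and 3.99 CPM (2.24 ± 0.16, padj = 2.73e-08) and Ndrg1 had 259, 170.2 and 145 against 48.5, 53.7 and 53.6 CPM (1.80 ± 0.11, padj = 3.83e-09). In these genes no superficial value fell to the level of the remaining cells, but the Ankrd37 value of replicate 1 (4.05 CPM) rests on 1 UMI. Egln1 was higher (1.14 ± 0.09, padj = 5.48e-08). Egln3 had 4.05, 15.8 and 11.8 against 16.2, 1.38 and 1.72 CPM (3.28 ± 0.27, padj = 1.15e-07), and replicate 1, where the sums held 1 and 4 UMIs, went the other way. Vegfa had 178, 65.4 and 84.2 against 125, 84.5 and 106 CPM and did not pass (-0.08 ± 0.11, padj = 0.57).

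Among the glycolytic enzymes, Tpi1 (1.11 ± 0.12, padj = 3.20e-06), Pgk1 (1.05 ± 0.10, padj = 9.07e-07), Gpi1 (0.93 ± 0.11, padj = 3.45e-06), Gapdh (0.89 ± 0.21, padj = 0.00235), Aldoa (0.89 ± 0.15, padj = 1.55e-04) and Pkm (0.58 ± 0.16, padj = 0.00651) were called higher in superficial cells, and Pgam1 (padj = 0.883) and Eno1 (padj = 0.365) did not pass. Ldha had 588, 448 and 428 against 368, 342 and 341 CPM (0.69 ± 0.17, padj = 0.00321). Slc2a1 had 105, 130.4 and 146 against 174, 105 and 111 CPM (0.50 ± 0.11, padj = 9.68e-04) and Pdk1 had 12.2, 19.2 and 17.5 against 36.4, 16.01 and 13.5 CPM (0.48 ± 0.14, padj = 0.00732), both with replicate 1 in the other direction. Without replicate 2 or replicate 3, the genes called fell from 28 to 13 and 9, and the adjusted p became 0.922 and 0.957 for Slc2a1, 0.45 and 0.43 for Ldha, and 0.931 and 0.976 for Pdk1. In DESeq2, Slc2a1 (padj = 0.0897) and Pdk1 (padj = 0.112) did not pass.

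Of the other genes, Pfkp, Eno2 and Bnip3l were called higher in superficial cells, by 0.34 ± 0.09, 1.03 ± 0.27 and 0.78 ± 0.10. Pfkl (1.14 ± 0.11, padj = 4.78e-07), Aldoc (0.86 ± 0.33, padj = 0.0396), Ldhb (0.57 ± 0.09, padj = 1.29e-04), Adm (1.47 ± 0.32, padj = 0.00123) and Ddit4 (0.63 ± 0.15, padj = 0.00228) were called higher with replicate 1 in the other direction. Pfkm (padj = 0.0731), Pdk2 (padj = 0.364), Pdk4 (padj = 0.271) and Pdha1 (padj = 0.188) did not pass. Scaled by library totals alone, the superficial calls of Pkm (0.34, padj = 0.0678), Pfkp (0.13, padj = 0.241), Pdk1 (0.27, padj = 0.103) and Aldoc (0.65, padj = 0.107) were lost, and Hk1 (-0.30, padj = 0.00729), Pfkm (-0.59, padj = 0.00794) and Vegfa (-0.29, padj = 0.0182) became lower.

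In Ibsp-high cells of replicates 2 and 3, Slc16a3 had 23.8 and 23.3 CPM (1.83 ± 0.13, padj = 4.85e-08 against remaining cells), Epas1 54.6 and 50.3 CPM (1.75 ± 0.13, padj = 1.34e-07), Ankrd37 9.48 and 13.8 CPM (1.80 ± 0.19, padj = 2.73e-06) and Bnip3 54.9 and 54.7 CPM (1.39 ± 0.11, padj = 2.09e-07). In both libraries each lay between its superficial and its remaining level. Egln3 had 4.89 and 3.88 CPM and was called with edgeR (1.72 ± 0.39, padj = 0.00248) but not with DESeq2 (adjusted p = 0.258). Pfkfb3 had 39.3 and 39.9 CPM (-1.50 ± 0.12, padj = 2.08e-07), Hk2 104 and 114 CPM (-1.05 ± 0.12, padj = 6.20e-06), Slc16a1 17.1 and 20.3 CPM (-0.75 ± 0.11, padj = 8.67e-05) and Pdk4 1.38 and 1.71 CPM (-1.34 ± 0.32, padj = 0.00364), all lower than in remaining cells. Vegfa (52.6 and 66.6 CPM, -0.39 ± 0.12, padj = 0.0142) and Pfkp (55.6 and 60.7 CPM, -0.48 ± 0.11, padj = 0.00213) were lower too, and Pfkp was higher in superficial cells (0.34 ± 0.09, padj = 0.00662). The Vegfa call was lost with DESeq2 (padj = 0.27) or looser gates (padj = 0.323). Ldha (389 and 397 CPM) was called higher (0.52 ± 0.19, padj = 0.0374), and Hif1a (336 and 338 CPM, padj = 0.448), Slc2a1 (99.98 and 112 CPM, padj = 0.168) and Pdk1 (15.7 and 16.6 CPM, padj = 0.0626) did not pass. The same genes passed as higher in Ibsp-high cells under stricter gates (padj = 0.0119, 0.00368 and 0.0054) and without replicate 1 (padj = 0.0108, 0.0106 and 0.0218), which holds no Ibsp-high sum. These calls depended on the scaling. With library totals alone, Hif1a (-0.10, padj = 0.631), Slc2a1 (-0.06, padj = 0.696) and Pdk1 (0.12, padj = 0.561) did not pass. The CPM of Hif1a was lower in Ibsp-high than in remaining cells in both libraries. A further 12 genes were called higher, from 0.50 ± 0.10 for Bnip3l to 1.09 ± 0.36 for Aldoc. They were Gpi1, Pfkl, Aldoa, Aldoc, Tpi1, Pgk1, Pkm, Ldhb, Egln1, Bnip3l, Adm and Ddit4. Hk1, Pfkm, Pfkfb4, Gapdh, Pgam1, Eno1, Eno2, Pdk2, Pdha1 and Ndrg1 did not pass. Scaled by library totals alone, the calls of Ldha (0.24, padj = 0.261), Bnip3l (0.24, padj = 0.0537), Adm (0.80, padj = 0.0902) and Aldoc (0.84, padj = 0.0668) were lost, and Hk1 (-0.27, padj = 0.0238) and Pdha1 (-0.37, padj = 0.00757) became lower. The Ldha call was also lost with no low-count filter (padj = 0.104), doublets kept (padj = 0.0574) or looser gates (padj = 0.0898).

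Leaving out replicate 2 or replicate 3 left 1 library of Ibsp-high cells, and the genes called fell from 24 to 3 and 3. Bnip3 (padj = 0.135 and 0.203), Hk2 (padj = 0.356 and 0.347), Egln3, Slc16a1, Pdk4, Vegfa, Pfkp and Ldha were lost without either library. Epas1 (padj = 0.0655) was lost without replicate 2 and Ankrd37 (padj = 0.312) without replicate 3.

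Further genes of the same pathways came from lists of 27 glycolysis and 30 hypoxia genes. Of the 12 tested glycolysis genes, 2 were higher and 5 lower in cartilage than in stromal cells, and 1 was higher and 1 lower against both tendon-like and bone-forming cells. The shares of all genes were 26.0% higher and 24.4% lower against stromal, 19.3% and 18.2% against tendon-like and 26.8% and 22.5% against bone-forming cells. Slc2a3, the high-affinity glucose transporter, had 17.2, 6.12 and 7.42 CPM in cartilage and 159, 84.0 and 84.8 CPM in stromal cells (-3.26 ± 0.37, padj = 3.86e-06), the opposite order to Slc2a1. Slc16a7, another monocarboxylate transporter (-2.50 ± 0.36, padj = 3.75e-05), and Pdk3 (-2.01 ± 0.24, padj = 6.53e-06) were lower in cartilage too, while Bpgm (0.97 ± 0.31, padj = 0.0168) and Mpc1, a subunit of the mitochondrial pyruvate carrier (0.86 ± 0.18, padj = 0.00101), were higher. The counts were 5 higher and 1 lower in stromal against tendon-like cells, 6 and 0 in stromal against bone-forming cells, and 1 and 0 in tendon-like against bone-forming cells. All genes gave 14.3% and 13.8%, 17.9% and 17.3%, and 15.6% and 14.7%. Of 20 tested in the zones, 5 were higher and 5 lower in superficial cells, and 3 and 2 in Ibsp-high cells. All genes gave 25.6% and 27.8%, and 20.0% and 21.4%.

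Of the 24 tested hypoxia genes, 11 were higher and 8 lower in cartilage than in stromal cells, 10 and 5 against tendon-like cells, and 7 and 9 against bone-forming cells. The shares of all genes in the same order were 26.0% and 24.4%, 19.3% and 18.2%, and 26.8% and 22.5%. Bhlhe40, a transcriptional repressor, had 482, 346 and 380.4 CPM in cartilage and 85.4, 52.0 and 68.4 CPM in stromal cells (2.95 ± 0.25, padj = 1.55e-07). Stc2 was higher as well (4.92 ± 0.59, padj = 6.64e-06), as was the carbonic anhydrase Car12, with 8.58, 36.9 and 27.4 CPM against 0.589, 0 and 0 CPM. Pgf, a vessel growth factor of the Vegfa family (-5.16 ± 0.38, padj = 4.38e-08), Angptl4 (-3.94 ± 0.50, padj = 1.16e-05) and Mxi1 (-3.13 ± 0.24, padj = 8.23e-08) were lower in cartilage than in stromal cells. Against bone-forming cells, Mif (1.92 ± 0.20, padj = 3.00e-06), Fam162a (1.87 ± 0.27, padj = 4.67e-05) and Tfrc, the transferrin receptor (1.81 ± 0.29, padj = 1.47e-04), were higher in cartilage, and Pgf (-3.64 ± 0.46, padj = 1.41e-05), Nupr1 (-3.04 ± 0.30, padj = 1.50e-06) and Mxi1 (-2.42 ± 0.26, padj = 2.87e-06) lower. Against tendon-like cells, P4ha2, a collagen prolyl hydroxylase subunit (2.75 ± 0.23, padj = 4.83e-07), Car12 and Tfrc were higher in cartilage, and Mxi1, Lox and Egln2 lower. The counts were 3 higher and 4 lower in stromal against tendon-like cells, 5 and 8 in stromal against bone-forming cells, and 1 and 8 in tendon-like against bone-forming cells. All genes gave 14.3% and 13.8%, 17.9% and 17.3%, and 15.6% and 14.7%. Plod2, a collagen lysyl hydroxylase, had 1108, 1503 and 1540.5 CPM in bone-forming and 142, 146 and 153 CPM in stromal cells (-3.65 ± 0.26, padj = 6.98e-08 for stromal against bone-forming). In superficial against remaining cells, 15 of 29 hypoxia genes were higher and 9 lower, and 16 and 4 in Ibsp-high cells. All genes gave 25.6% and 27.8%, and 20.0% and 21.4%. Lox, a collagen cross-linking enzyme (2.72 ± 0.21, padj = 6.32e-08), Ak4 (1.63 ± 0.13, padj = 7.92e-08) and Higd1a (1.57 ± 0.15, padj = 6.94e-07) were higher, and Car12 (-4.34 ± 0.17, padj = 6.18e-11) and Angptl4 (-3.86 ± 0.25, padj = 9.26e-09) were lower.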

How the data were processed

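Droplet 3' single-cell RNA-seq of sorted Alcam+Sca-1- BLCs was deposited by the authors as 3 filtered matrices of raw UMI counts. The submitters' processing notes name Cell Ranger 7.1.0 and mm10. Libraries held 2606, 7172 and 10529 barcodes and 20985636, 79905165 and 69890252 UMIs. Cells with under 200 genes or over 20% mitochondrial UMIs were removed (79, 447 and 299), as were the cells with the highest Scrublet scores, at 0.8% per 1000 cells (51, 362 and 837, scanpy 1.11.5), which left 2476, 6363 and 9393. Cells were gated on marker UMIs. The minimum summed marker level, in CPM of the cell's UMIs, was 10000 for cartilage, 6000 for stromal, 1000 for tendon-like and 5000 for bone-forming cells, and within cartilage 10000 for superficial and 5000 for Ibsp-high cells. UMI counts were summed per library and gate where at least 10 cells were present.

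Sums were tested with edgeR 4.0.16 (quasi-likelihood, TMM, filterByExpr, R 4.3.3) with library as a block, because all gates of a library came from the same preparation. One fit covered the 4 gates and another the 3 zones, and p-values were adjusted by Benjamini-Hochberg over all genes tested. The tests were tried on simulated data first. Alternatives were DESeq2 1.42.0, RLE scaling, no low-count filter, no block, doublets kept, no cell filter, doubled or halved gate cut points and each library left out. Bone-forming cells kept whatever their cartilage markers, cartilage without superficial and Ibsp-high cells, and library totals without composition scaling were added after seeing the data. The genes, gates and lists were chosen with earlier results of these data known. Slc2a1, Ldha, Pdk1, Hif1a and Vegfa were always described, and in each comparison up to 5 genes higher and 5 lower with the largest fold change among those called and moving the same way in every library. For the wider pathway lists up to 3 in each direction were eligible, and some of them are named. Plots and tables were made with Python 3.11.15. Precision is limited by counting in the small sums, and UMIs collapse amplification copies.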

Additional observations from a re-analysis of the deposited data

How the results depend on the processing

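Over the named genes and alternatives, 1215 log2 fold changes were recomputed. Of these, 1107 kept their side of the threshold, 91 kept direction but no longer passed, 16 newly passed in the same direction and 1 reversed. A reversal was counted only where either fit called the gene, so the 1107 include changes of sign without a call. An example is Slc2a1 in Ibsp-high cells, at 0.20 in the main fit and -0.06 with library totals alone. The reversal was Hif1a in superficial against remaining cells under stricter gates (0.27 against -0.00), and its cause was not tested. RLE scaling, no cell filter and cartilage without its zones changed no call among these named genes. Bnip3 was not among those named for cartilage against stromal or tendon-like cells. Over the whole set these settings moved counts of calls by up to 3. Without the zones, the cartilage calls went from 21 to 20 against stromal, 20 to 18 against tendon-like and 23 to 20 against bone-forming cells. Leaving out each library gave the widest shifts, and fewer samples enter those fits. Genes of the set called then ranged from 19 to 22 (cartilage against stromal), 16 to 21 (tendon-like), 14 to 26 (bone-forming), 6 to 12 (stromal against tendon-like), 5 to 11 (stromal against bone-forming), 3 to 16 (tendon-like against bone-forming), 3 to 30 (Ibsp-high) and 9 to 28 (superficial). All genes called ranged from 2831 to 4640, 1628 to 4063, 2273 to 5422, 1314 to 2818, 1494 to 3720, 1080 to 3569, 389 to 7111 and 1250 to 8616 in the same order. Without the replicate block the genes called were 21, 20, 23, 10, 11, 13, 21 and 26 and all genes 4388, 3039, 3852, 2185, 2863, 2300, 4633 and 6342, in the same order, and among the named genes the calls lost were Ldha (adjusted p = 0.112), Pfkp (padj = 0.121) and Vegfa (padj = 0.228) in Ibsp-high cells and Slc2a1 (padj = 0.115) in superficial cells. With bone-forming cells kept whatever their cartilage markers (chosen after seeing the data), Bnip3 (padj = 0.492), Pfkp (padj = 0.11) and Slc2a1 (padj = 0.084) were lost in stromal against bone-forming cells, and Bnip3 (padj = 0.0883), Pfkp (padj = 0.262) and Pgk1 (padj = 0.159) in tendon-like against bone-forming cells. Under stricter gates the Hk2 share in cartilage was 69.4%, the Epas1 share in cartilage 6.43% and the Pfkp share in bone-forming cells 20.2%, against 36.2% under looser gates. The smallest sums, of 36 bone-forming cells and 25 remaining cells in replicate 1, limit what low genes can show.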

Other observations

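Cells outside the 4 populations also carried these transcripts. Cells gated as haematopoietic had 82.8, 73.9 and 99.5 CPM of Hif1a and 2.73, 2.13 and 3.08 CPM of Epas1, the lowest Epas1 level of the populations given here. Their Ldha level was 371, 262 and 299 CPM, their Slc2a1 level 19.6, 18.1 and 12.3 CPM and their Vegfa level 17.7, 8.51 and 16.4 CPM. Cells that passed no gate had 135, 138 and 159 CPM of Hif1a, 46.0, 51.3 and 71.8 CPM of Epas1 and 50.9, 42.9 and 47.2 CPM of Vegfa. Cells gated as mural could be summed in replicate 1 alone, with 787 CPM of Epas1 and 274 CPM of Hif1a, and no spread can be given for them. Car12, a carbonic anhydrase and HIF target, was at 248, 49.8 and 52.9 CPM in bone-forming cells and had no UMI in tendon-like cells.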
